A study of Mus musculus with 6 samples.

Results

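The genes described here are 10 markers of monocytes and macrophages: Csf1r, Ccr2, F13a1, Ly86, C1qa, C1qb, C1qc, Emr1, Cd14 and Lyz2. They were taken by name from a table of 22381 mouse genes, and each name stood on 1 line. RNA of LSK cells had been sequenced, the marrow cells negative for mature lineage antigens and positive for Sca-1 and c-Kit, from C57BL/6 mice aged 8 to 12 weeks. One group of 3 samples carried the label Tgif1-/-, meaning that both copies of a homeobox repressor of TGF-beta responses were targeted, and the other group of 3 samples carried the label WT (wild type). No label says whether the samples are separate animals, so the spread behind the deposited p-values may be technical, or which part of Tgif1 was removed. The table used here gives 1 value per group in FPKM (fragments scaled to transcript length and to library size). Values of single samples, their spread and the depth per sample were not analysed here, so each level below is the authors' group value without an SD.

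Monocytes arise in bone marrow from progenitors that descend from the multipotent cells of the LSK fraction, and circulate before some of them enter tissues and become macrophages. The cytokine CSF1 acts through its receptor Csf1r to keep both cell types alive, and the chemokine receptor Ccr2 lets monocytes leave the marrow. Mature macrophages are known for lysozyme, for making the 3 chains of complement C1q, for the surface receptor F4/80 and for sensing bacterial lipopolysaccharide with Cd14. Some of these transcripts are also made in earlier or other cells: lysozyme in granulocytes and their progenitors, and F13a1 in megakaryocytes. In a sorted bulk population, fewer cells of a type and less RNA per cell cannot be told apart.

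None of the 10 genes was called different between the groups. The authors had tested 6 of them, the tests of 3 failed, and 1 had too few reads for a test. Of all 10730 tested genes, 71 were called (q at or under 0.05 in the authors' deposited table), which is 0.662%, so 0 of 6 is near the background. By other rules the called share of all tested genes was 0.363% at a q of 0.01, 0.923% at a q of 0.1 and 0.205% with a floor on the error. It was 0.7% among genes of at least 1 FPKM in a group, a rule that leaves out C1qa and Emr1. By any of these rules, 0 of the 6 were called. The tests of 14.0% of all genes in the table had failed. By level the 10 genes fell into 2 sets: Lyz2, Ly86, Csf1r, F13a1 and Ccr2 were above 5 FPKM in both groups, while C1qa, C1qb, C1qc, Emr1 and Cd14 were under 3 FPKM in both.

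Tgif1 itself stood at 88.6 FPKM under the Tgif1-/- label and at 71.5 FPKM under the wild-type label, and its test had failed. The value over the whole gene goes against the label and has no error, so each direction below is between groups as labelled. The defining markers of LSK cells were present. Kit, the c-Kit receptor, whose test failed, stood at 193 FPKM under the Tgif1-/- label and 202 FPKM under the wild-type label. Ly6a, which encodes Sca-1, stood at 120 FPKM (Tgif1-/-) and 88.9 FPKM (wild type). Itgam, which encodes the mature myeloid antigen CD11b, stood at 35.4 FPKM under the Tgif1-/- label and 34.0 FPKM under the wild-type label. The antigens used for lineage depletion are not given in the sources used here.

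Upstream sequences were available for 6 of the 10 genes in the RefSeq promoter table (GRCm38.p6). Those of C1qb, C1qc and Lyz2 are shown, because C1qb and C1qc are neighbours listed at nearly the same level and Lyz2 is the most abundant of the 10. Each is the 250 bases before the RefSeq transcription start, given 5′ to 3′ on the strand of the gene. The GENCODE annotation places the starts of C1qc (136893065) and Lyz2 (117282321) inside these windows, so part of each lies within the GENCODE gene. Capitals mark the letters TGCTGA on either strand, letters bound by large Maf factors. C1qb lies on the minus strand at chr4:136886201-136886450, C1qc on the minus strand at chr4:136892915-136893164 and Lyz2 on the minus strand at chr10:117282273-117282522.
C1qb: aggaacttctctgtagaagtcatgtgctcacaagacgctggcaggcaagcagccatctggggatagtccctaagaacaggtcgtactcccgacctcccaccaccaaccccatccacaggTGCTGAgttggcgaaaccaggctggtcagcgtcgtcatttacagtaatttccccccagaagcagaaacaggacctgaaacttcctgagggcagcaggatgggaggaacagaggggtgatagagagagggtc
C1qc: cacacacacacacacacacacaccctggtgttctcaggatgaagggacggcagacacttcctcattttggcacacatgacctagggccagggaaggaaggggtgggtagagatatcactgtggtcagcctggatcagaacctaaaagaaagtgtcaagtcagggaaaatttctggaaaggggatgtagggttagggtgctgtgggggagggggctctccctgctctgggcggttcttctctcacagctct
Lyz2: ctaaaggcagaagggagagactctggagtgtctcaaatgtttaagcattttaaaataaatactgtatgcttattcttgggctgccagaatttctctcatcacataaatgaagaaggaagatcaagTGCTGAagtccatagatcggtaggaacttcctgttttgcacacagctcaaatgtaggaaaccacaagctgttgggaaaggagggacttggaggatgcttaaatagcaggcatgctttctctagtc
The letters TGCTGA occurred 1 time in the C1qb window, beginning 131 bases before the RefSeq start. They occurred 1 time in the Lyz2 window, beginning 125 bases before the RefSeq start, and 0 times in that of C1qc. Of 32851 windows of this length in the table, 16.1% hold them on either strand. Neither TTGCNNAA, the letters of a C/EBP site (in 9.56% of all windows), nor TATAAA (in 12.4%) occurred in the 3 windows. A match is a description of letters only.

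**Figure D1:**
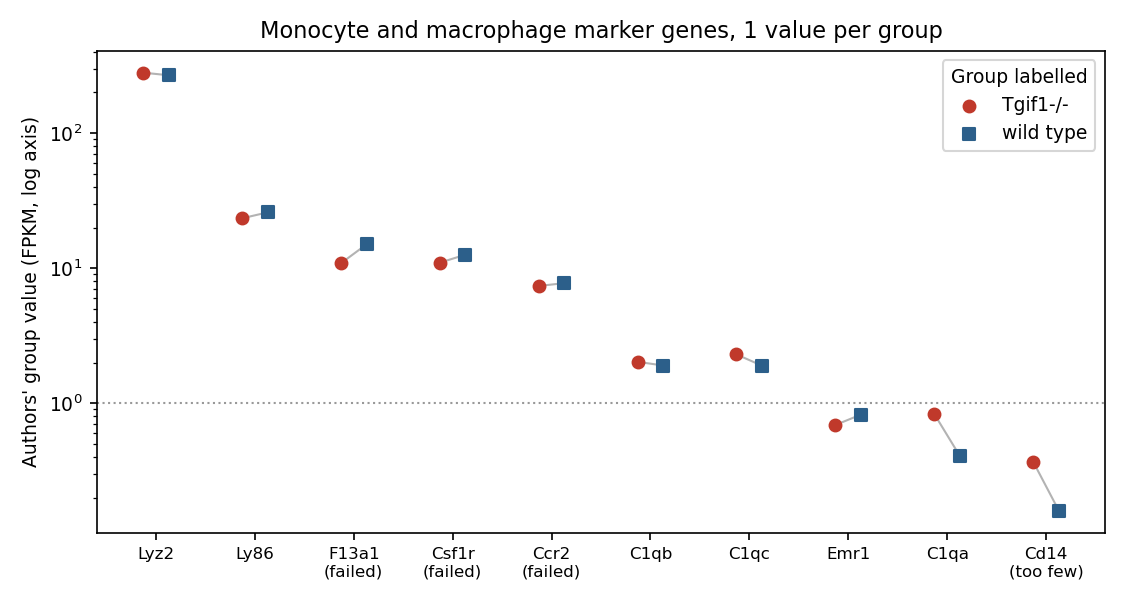
Authors' group value of each gene in FPKM on a log axis, with circles for the Tgif1-/- label and squares for the wild-type label; the dotted line is 1 FPKM and words under a name give a test that failed or had too few reads. Lyz2 stands at 280 FPKM (Tgif1-/-) and 268 FPKM (wild type), more than 10 times above Ly86, the next gene, and Emr1, C1qa and Cd14 are under 1 FPKM in both groups.

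Lyz2, which encodes the lysozyme of myeloid cells, was by far the highest of the 10. It stood at 280 FPKM under the Tgif1-/- label and at 268 FPKM under the wild-type label, which is rank 468 of the 22381 genes under the Tgif1-/- label and rank 499 under the wild-type label. Its level was 1.45 times that of Kit under the Tgif1-/- label and 1.33 times that of Kit under the wild-type label. The log2 ratio of Tgif1-/- over wild type was 0.06 with a standard error of 0.20 implied by the authors' deposited table (p = 0.749, q = 1.00 there). The 95% interval of the fold from that error was 0.797 to 1.37, so a 2-fold difference lies outside it. This error belongs to the authors' Cuffdiff model and is not a spread measured here between samples.

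Lyz2 (chromosome 10, positions 117277331 to 117282321, GRCm38) has a closely related neighbour, the lysozyme gene Lyz1, and 15.4% of the different 50-base stretches of Lyz2 transcripts also occur in Lyz1 transcripts. Lyz1 stood at 23.3 FPKM under the Tgif1-/- label and 23.0 FPKM under the wild-type label. Lyz2 was 12.0 times above Lyz1 under the Tgif1-/- label and 11.7 times under the wild-type label, and reads shared between the pair leave both levels uncertain.

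Ly86 encodes MD-1, a secreted protein that pairs with the receptor RP105, the product of Cd180. It stood at 23.4 FPKM under the Tgif1-/- label and at 25.9 FPKM under the wild-type label. The log2 ratio was -0.15 (implied standard error 0.29, p = 0.609, q = 1.00 in the authors' deposited table), and the 95% interval of the fold ran from 0.611 to 1.34. Cd180, whose test failed, stood at 88.6 FPKM under the Tgif1-/- label and 79.1 FPKM under the wild-type label. The receptor was thus listed above its partner in both groups, by 3.79 times under the Tgif1-/- label and 3.05 times under the wild-type label. Ly86 lies on chromosome 13 at positions 37345208 to 37419036 (GRCm38).

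Csf1r, F13a1 and Ccr2 were the genes whose tests failed, so no error or p goes with their values. Csf1r, the receptor of CSF1 and IL-34, stood at 11.0 FPKM under the Tgif1-/- label and at 12.6 FPKM under the wild-type label, a log2 ratio of -0.20. Kit, a receptor of the same tyrosine kinase class, was 17.5 times above Csf1r under the Tgif1-/- label and 16.1 times above it under the wild-type label. The table's locus of Csf1r overlaps the neighbouring gene Hmgxb3, and 14.3% of the 50-base stretches of Csf1r transcripts also occur in Hmgxb3 transcripts, so the split of reads between them is uncertain. In GRCm38 Csf1r lies on chromosome 18 at positions 61100598 to 61132149.

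F13a1, the catalytic A subunit of coagulation factor XIII, stood at 10.9 FPKM under the Tgif1-/- label and at 15.0 FPKM under the wild-type label. Its log2 ratio of -0.47 was the lowest of the 10 genes, with no test behind it. F13b, the gene of the carrier B subunit made in liver, was listed at 0 FPKM under the Tgif1-/- label and at 0.139 FPKM under the wild-type label. F13a1 lies on chromosome 13 at positions 36867178 to 37050244 (GRCm38), 295 kb from Ly86.

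Ccr2, the receptor of monocyte-attracting chemokines, stood at 7.39 FPKM under the Tgif1-/- label and at 7.76 FPKM under the wild-type label, a log2 ratio of -0.07. Of the 50-base stretches of Ccr2 transcripts, 1.91% also occur in other genes. Ccr2 lies on chromosome 9 at positions 124101950 to 124113557 (GRCm38).

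C1qa, C1qb and C1qc encode the A, B and C chains of C1q, the molecule that starts the classical complement pathway and that holds the chains in equal number. They lie side by side on the minus strand of chromosome 4 (GRCm38), C1qb at positions 136880129 to 136886187, C1qc at 136889804 to 136893065 and C1qa at 136895917 to 136898803, with gaps of 3.62 kb and 2.85 kb. C1qb stood at 2.03 FPKM under the Tgif1-/- label and at 1.90 FPKM under the wild-type label. C1qc stood at 2.30 FPKM under the Tgif1-/- label and at 1.90 FPKM under the wild-type label. C1qa stood at 0.833 FPKM under the Tgif1-/- label and at 0.405 FPKM under the wild-type label. The A chain was listed below the other two in both groups, at 0.362 times the level of C1qc under the Tgif1-/- label and 0.214 times under the wild-type label.

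All 3 chains had their higher value under the Tgif1-/- label, and none of the differences passed the test. For C1qa the log2 ratio was 1.04 (implied standard error 0.77, p = 0.177, q = 1.00 in the authors' deposited table), the smallest p among the 6 tested genes. Its fold of 2.05 had a 95% interval of 0.722 to 5.84, and with a pseudocount of 1 FPKM the log2 ratio was 0.38. The log2 ratio of C1qc was 0.28 (implied standard error 0.53, p = 0.600 in the authors' deposited table), and its fold interval ran from 0.588 to 2.50. That of C1qb was 0.09 (implied standard error 0.56, p = 0.872 in the authors' deposited table), with a fold interval of 0.496 to 2.29. At these levels a 2-fold higher value lies inside the interval of each of the 3 chains. A 2-fold lower value lies inside that of C1qb alone. No 50-base stretch of the 3 chains occurs in another gene.

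Emr1, named Adgre1 in the GENCODE annotation, encodes F4/80, the surface receptor most used to mark mouse macrophages. It stood at 0.691 FPKM under the Tgif1-/- label and at 0.826 FPKM under the wild-type label. The log2 ratio was -0.26 (implied standard error 0.64, p = 0.690, q = 1.00 in the authors' deposited table), and the fold interval ran from 0.349 to 2.01. Cd97, a broadly expressed receptor of the same adhesion class whose test failed, was listed at 44.0 FPKM under the Tgif1-/- label and 30.3 FPKM under the wild-type label. Another relative, Emr4, had too few reads and was listed at 0.253 FPKM (Tgif1-/-) and 0.268 FPKM (wild type). Emr1 lies on chromosome 17 at positions 57358691 to 57483527 (GRCm38).

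Cd14, the co-receptor that hands lipopolysaccharide to Tlr4, was the lowest of the 10. It stood at 0.369 FPKM under the Tgif1-/- label and at 0.160 FPKM under the wild-type label, and the table marks it as having too few reads to test. Its log2 ratio was 1.21, or 0.24 with a pseudocount of 1 FPKM. Tlr4 itself was 63.0 times above Cd14 under the Tgif1-/- label and 177 times above it under the wild-type label. Cd14 lies on chromosome 18 at positions 36725067 to 36726798 (GRCm38).

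**Figure D2:**
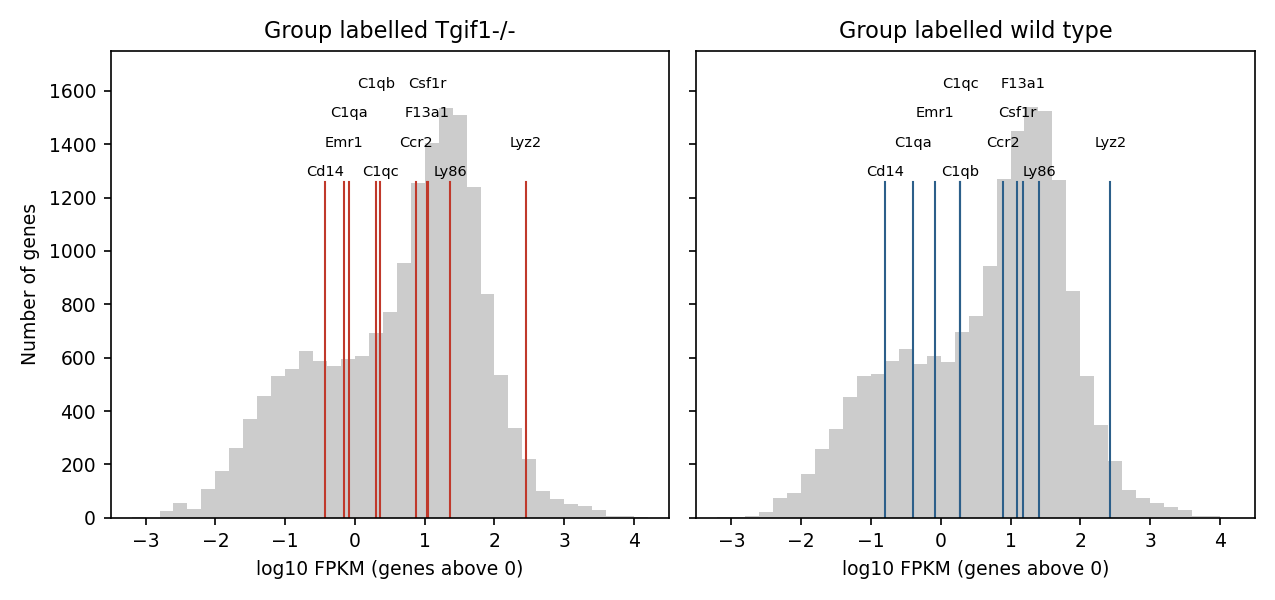
Number of genes by log10 FPKM (grey bars, genes above 0) under the Tgif1-/- label on the left and the wild-type label on the right, with a line for each of the 10 genes. Lyz2 lies in the high tail, Ly86, F13a1, Csf1r and Ccr2 lie near the main peak, and C1q chains, Emr1 and Cd14 lie in the low shoulder in both panels.

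The order of the levels was nearly the same in the 2 groups. From high to low it was Lyz2, Ly86, Csf1r, F13a1, Ccr2, C1qc, C1qb, C1qa, Emr1 and Cd14 under the Tgif1-/- label, and Lyz2, Ly86, F13a1, Csf1r, Ccr2, C1qb, C1qc, Emr1, C1qa and Cd14 under the wild-type label. The pairs that swapped places were Csf1r with F13a1, C1qc with C1qb, and C1qa with Emr1. With 1 value per group there is no spread over samples to say which neighbours in this order differ. The median gene of the table stood at 2.08 FPKM under the Tgif1-/- label and 2.23 FPKM under the wild-type label, so C1qa, C1qb, Emr1 and Cd14 were below it in both groups and C1qc was above it under the Tgif1-/- label alone. Summed over the 10 genes the level was 339 FPKM under the Tgif1-/- label and 335 FPKM under the wild-type label. Without Lyz2 the sums were 58.9 FPKM under the Tgif1-/- label and 66.5 FPKM under the wild-type label.

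**Figure D3:**
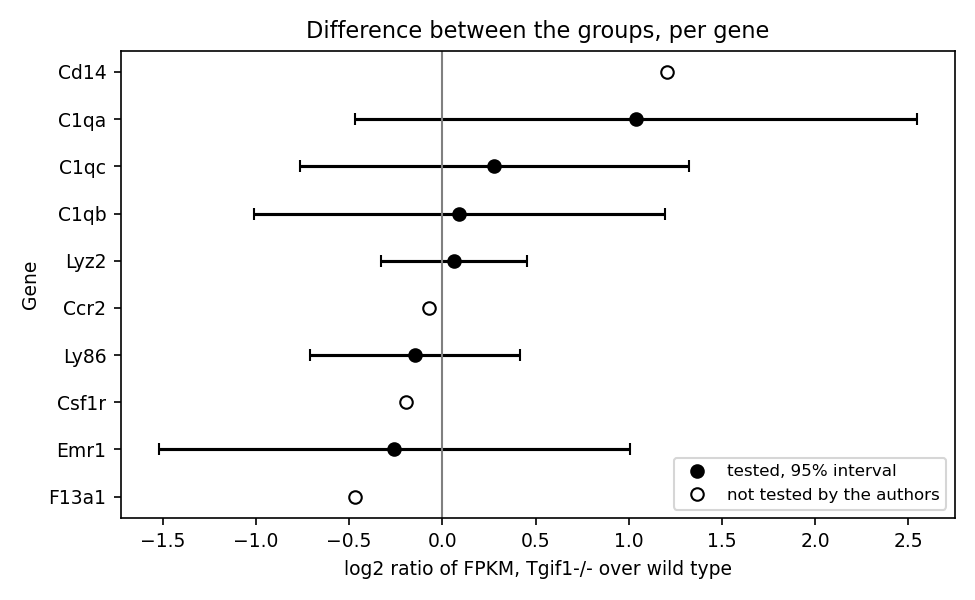
log2 ratio of FPKM, Tgif1-/- over wild-type label, for each of the 10 genes; filled points are tested genes with the 95% interval implied by the authors' deposited statistic, and open points are genes without a test. Every interval crosses 0, the narrowest being that of Lyz2 and the widest that of C1qa.

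Of the 6 tested genes, 4 had a positive log2 ratio (Lyz2, C1qa, C1qb and C1qc) and 2 a negative one (Ly86 and Emr1), and 0 had a Cuffdiff p under 0.05 before adjustment, against 5.41% of all tested genes. The median log2 ratio of the 6 was 0.08, beside -0.03 over all tested genes, of which 42.6% had a positive ratio. The 3 genes with failed tests all had the lower value under the Tgif1-/- label, so that over all 10 genes 5 were higher and 5 lower. The median over all 10 was 0.00.

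Around these genes, 8 lists of related genes were examined, holding 109 genes of the table, of which 74 were tested, 19 failed and 16 had too few reads. None of the 74 was called by Cuffdiff, the smallest q in the authors' deposited table being 0.332, and 4 had an unadjusted p under 0.05, or 5.41%, the same share as over all tested genes. The 4 were Csf1, Cd36, Timd4 and C3ar1, and all 4 had the higher value under the Tgif1-/- label, against 1.85% of all tested genes with such a p and a higher value there. Of the 74 genes, 35 were higher and 39 lower under the Tgif1-/- label, with a median log2 ratio of -0.01.

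Among lineage transcription factors, 5 of 9 tested genes were higher and 4 lower under the Tgif1-/- label, none with p under 0.05, and the median log2 ratio was 0.06. Irf8, which directs progenitors to the monocyte and dendritic lineages, had the smallest p (0.163 in the authors' deposited table) and stood at 35.3 FPKM under the Tgif1-/- label and 41.5 FPKM under the wild-type label. Irf5, an interferon regulatory factor of macrophages, stood at 33.9 FPKM under the Tgif1-/- label and 42.1 FPKM under the wild-type label. Zeb2 was the most abundant, at 70.5 FPKM (Tgif1-/-) and 73.9 FPKM (wild type). Maf, a factor of mature macrophages, was listed at 0.530 FPKM under the Tgif1-/- label and 0.506 FPKM under the wild-type label. Spic, of the same list, was higher, at 11.9 FPKM (Tgif1-/-) and 11.4 FPKM (wild type). Of the 11 genes of this list, 4 were under 1 FPKM under the Tgif1-/- label and 5 under the wild-type label. Spi1 and Tfec had been planned for this list but are not among the 11.

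Among other monocyte markers, 10 of 17 tested genes were higher and 7 lower under the Tgif1-/- label, none with p under 0.05, with a median log2 ratio of 0.12. The smallest p-values in the authors' deposited table belonged to Ccr1, a chemokine receptor at 1.24 FPKM under the Tgif1-/- label and 0.583 FPKM under the wild-type label (p = 0.0657), and Aif1, a calcium-binding protein of macrophages at 3.15 FPKM (Tgif1-/-) and 1.75 FPKM (wild type) (p = 0.153). The list also held abundant genes. Ctss, the lysosomal protease cathepsin S, stood at 46.3 FPKM (Tgif1-/-) and 39.7 FPKM (wild type), and Ly6c2, the antigen of classical monocytes, at 35.1 FPKM (Tgif1-/-) and 44.9 FPKM (wild type). Ly6c1 and Ly6c2 are close copies, so reads shared between them leave both levels uncertain.

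Among macrophage surface and phagocytic receptors, 4 of 11 tested genes were higher and 7 lower under the Tgif1-/- label, with a median log2 ratio of -0.01. Of the 19 genes of this list, 11 were under 1 FPKM under the Tgif1-/- label and 10 under the wild-type label. Cd36, a scavenger receptor for lipids, was at 0.569 FPKM under the Tgif1-/- label and 0.238 FPKM under the wild-type label (p = 0.00742, q = 0.374 in the authors' deposited table). Timd4, a receptor for dying cells, was at 0.385 FPKM under the Tgif1-/- label and 0.0724 FPKM under the wild-type label (p = 0.00784, q = 0.383 in the authors' deposited table). Their log2 ratios of 1.25 and 2.41 rest on values under 1 FPKM and were 0.34 and 0.37 with a pseudocount of 1. The abundant members were Tyrobp, the signalling adaptor DAP12, at 121 FPKM under the Tgif1-/- label and 99.8 FPKM under the wild-type label, and the lysosomal protein gene Cd68, whose test failed, at 37.4 FPKM (Tgif1-/-) and 32.3 FPKM (wild type).

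The ligands of Csf1r were both measured. Csf1 stood at 7.54 FPKM under the Tgif1-/- label and 5.08 FPKM under the wild-type label, a log2 ratio of 0.57 (implied standard error 0.24, p = 0.0177, q = 0.583 in the authors' deposited table). Il34, the second ligand, stood at 0.251 FPKM under the Tgif1-/- label and 0.941 FPKM under the wild-type label (p = 0.0833 in the authors' deposited table). The level of the receptor over that of Csf1 was 1.46 under the Tgif1-/- label and 2.48 under the wild-type label, a ratio that holds the untested value of Csf1r. Over the whole list of CSF1 and myeloid growth factor signalling, 5 of 8 tested genes were higher and 3 lower, with a median log2 ratio of 0.03. Csf3r, the receptor of the granulocyte factor G-CSF, stood well above Csf1r at 82.4 FPKM under the Tgif1-/- label and 91.7 FPKM under the wild-type label, and its test failed.

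In the lipopolysaccharide recognition list, 3 of 10 tested genes were higher and 7 lower under the Tgif1-/- label, none with p under 0.05, with a median log2 ratio of -0.03. Tlr4, the signalling receptor, stood at 23.2 FPKM under the Tgif1-/- label and 28.3 FPKM under the wild-type label (p = 0.189 in the authors' deposited table). Its partner MD-2, the product of Ly96, stood at 13.9 FPKM under the Tgif1-/- label and 17.9 FPKM under the wild-type label. Lbp, which carries lipopolysaccharide in plasma, had the smallest p (0.173 in the authors' deposited table) and stood at 50.1 FPKM (Tgif1-/-) and 60.7 FPKM (wild type). The receptor complex was thus listed at 10 FPKM or more in both groups while its co-receptor Cd14 was under 1 FPKM.

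In the complement list, 6 of 14 tested genes were higher and 8 lower under the Tgif1-/- label, with a median log2 ratio of -0.04. C3ar1, the receptor of the C3a fragment, had the smallest p of all 8 lists and stood at 2.22 FPKM under the Tgif1-/- label and 0.936 FPKM under the wild-type label, a log2 ratio of 1.25 (p = 0.00549, q = 0.332 in the authors' deposited table). The proteases that bind C1q were uneven: C1ra stood at 1.74 FPKM under the Tgif1-/- label and 1.90 FPKM under the wild-type label, while C1s had too few reads for a test and was listed at 0.0356 FPKM (Tgif1-/-) and 0.0119 FPKM (wild type). C3, the central component, stood at 1.45 FPKM under the Tgif1-/- label and 2.01 FPKM under the wild-type label. Abundant genes of the list included Calr, the chaperone calreticulin, at 348 FPKM (Tgif1-/-) and 332 FPKM (wild type). C1qbp stood at 167 FPKM (Tgif1-/-) and 173 FPKM (wild type). Cd93, a surface receptor also found on early progenitors, stood at 149 FPKM (Tgif1-/-) and 165 FPKM (wild type).

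The chemokines that bind Ccr2 were near the low end of the scale. Ccl2 stood at 0.369 FPKM under the Tgif1-/- label and 0.888 FPKM under the wild-type label (p = 0.114 in the authors' deposited table), and Ccl12 was listed at 0 FPKM in both. Ccl7 was listed at 0.0767 FPKM under the Tgif1-/- label and at 0 FPKM under the wild-type label. Of the 6 tested genes in the list of Ccr2 ligands and related receptors, 2 were higher and 4 lower, none with p under 0.05, with a median log2 ratio of -0.30. Cxcr4, the receptor that holds stem cells in the marrow, stood at 149 FPKM under the Tgif1-/- label and 143 FPKM under the wild-type label. The list of factor XIII, lysozyme and adhesion receptor relatives had 2 tested genes, Lyz1 and Tgm2, a tissue transglutaminase at 5.51 FPKM under the Tgif1-/- label and 7.73 FPKM under the wild-type label, with a median log2 ratio of -0.23.

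**Figure D4:**
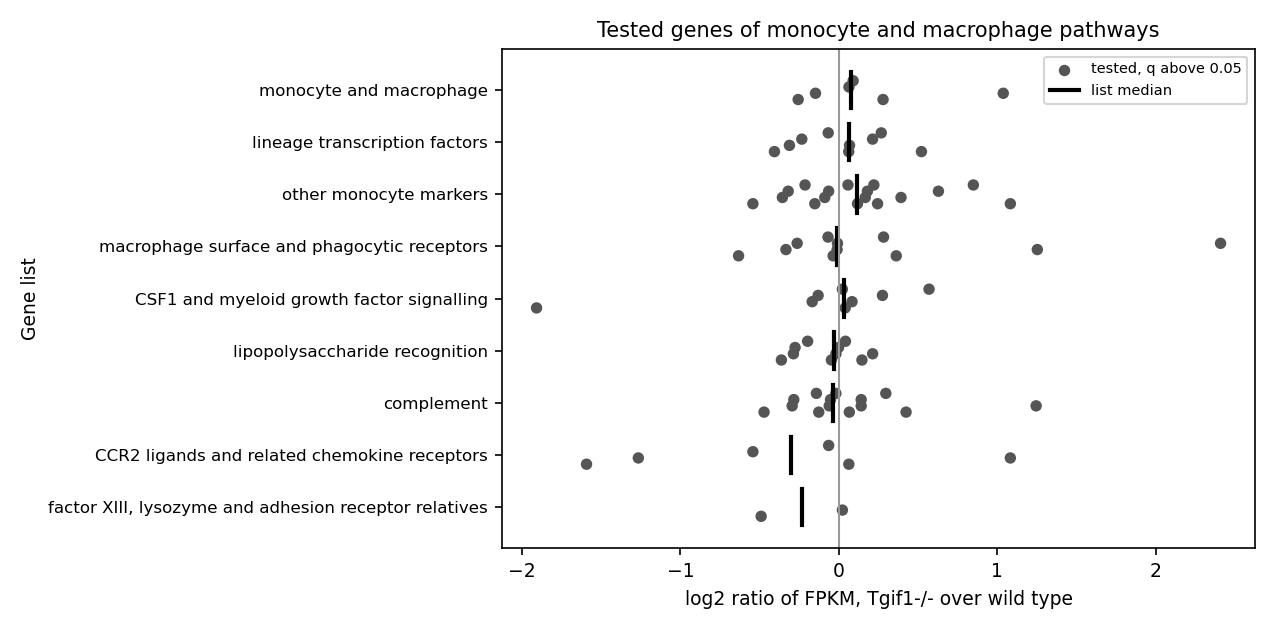
log2 ratio of FPKM, Tgif1-/- over wild-type label, for the tested genes of the 10 markers (top) and of 8 related lists; each point is a gene and each bar the median of its list. No gene had a q at or under 0.05, and the medians ran from -0.30 to 0.12.

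Of 8 other lists of cell type markers, 3 held genes called in the authors' deposited table. Under the Tgif1-/- label, all 9 tested markers of mast cells and basophils had the higher value and 4 were called (0.289% of all tested genes were called higher), and the list summed to 395 FPKM there and 161 FPKM under the wild-type label. Among the 9 tested B cell markers, 8 had the lower value and 4 were called (0.373% of all tested genes were called lower), with sums of 64.1 FPKM under the Tgif1-/- label and 135 FPKM under the wild-type label. The neutrophil list, the closest lineage, had 11 of 12 tested genes lower, with a median log2 ratio of -0.86. Of these, 6 were lower with p under 0.05, beside 3.55% of all tested genes, and 0 were called by Cuffdiff in the authors' deposited table. The list summed to 3775 FPKM under the Tgif1-/- label and 4170 FPKM under the wild-type label, mostly from the granule enzyme gene Mpo, whose test failed at 3055 FPKM (Tgif1-/-) and 3289 FPKM (wild type). The other 14 neutrophil markers summed to 720.1 FPKM under the Tgif1-/- label and 882 FPKM under the wild-type label. Dendritic cell markers summed to 354 FPKM under the Tgif1-/- label and 235 FPKM under the wild-type label, and 1 of 7 tested genes, H2-Eb1, was called higher. Nearly all of these sums came from 4 MHC class II genes, Cd74, H2-Aa, H2-Ab1 and H2-Eb1, of which 2 had failed tests: 345 FPKM under the Tgif1-/- label and 225 FPKM under the wild-type label. The other 6 dendritic cell markers summed to 8.92 FPKM under the Tgif1-/- label and 9.53 FPKM under the wild-type label, with 2 higher, 4 lower and 0 called, so the direction of the whole list's sum was not that of these 6.

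The remaining lists held no called gene. T and NK cell markers summed to 327 FPKM under the Tgif1-/- label and 326 FPKM under the wild-type label, of which the granule gene Nkg7 alone made up 316 FPKM (Tgif1-/-) and 313 FPKM (wild type). The other 9 summed to 10.7 FPKM under the Tgif1-/- label and 12.7 FPKM under the wild-type label, with 5 higher and 4 lower. Erythroid markers summed to 739 FPKM (Tgif1-/-) and 605 FPKM (wild type), with 6 of 10 tested genes higher and 4 lower under the Tgif1-/- label. Most of each sum came from Car1 and Car2. Car1 stood at 281 FPKM (Tgif1-/-) and 187 FPKM (wild type). Car2 stood at 374 FPKM (Tgif1-/-) and 333 FPKM (wild type). Megakaryocyte markers summed to 317 FPKM (Tgif1-/-) and 255 FPKM (wild type). In the last list 7 of 8 tested genes had the higher value under the Tgif1-/- label, while F13a1, which megakaryocytes also make, had the lower value there. No marker of the neutrophil, B cell, erythroid, megakaryocyte or dendritic lists was listed at 0 in either group, while the mast cell protease Tpsab1 was listed at 0 FPKM in both and the T cell gene Cd3g at 0 FPKM under the Tgif1-/- label and 0.677 FPKM under the wild-type label. Of 5 tested LSK and stem cell markers 2 were higher and 3 lower, and that list summed to 1547 FPKM under the Tgif1-/- label and 1577 FPKM under the wild-type label. The part of these cell types in the values of Lyz2, F13a1 and the other 8 genes was not tested. Several of the 10 genes are made by more than 1 of these cell types, and 1 value per group does not separate them.

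**Figure D5:**
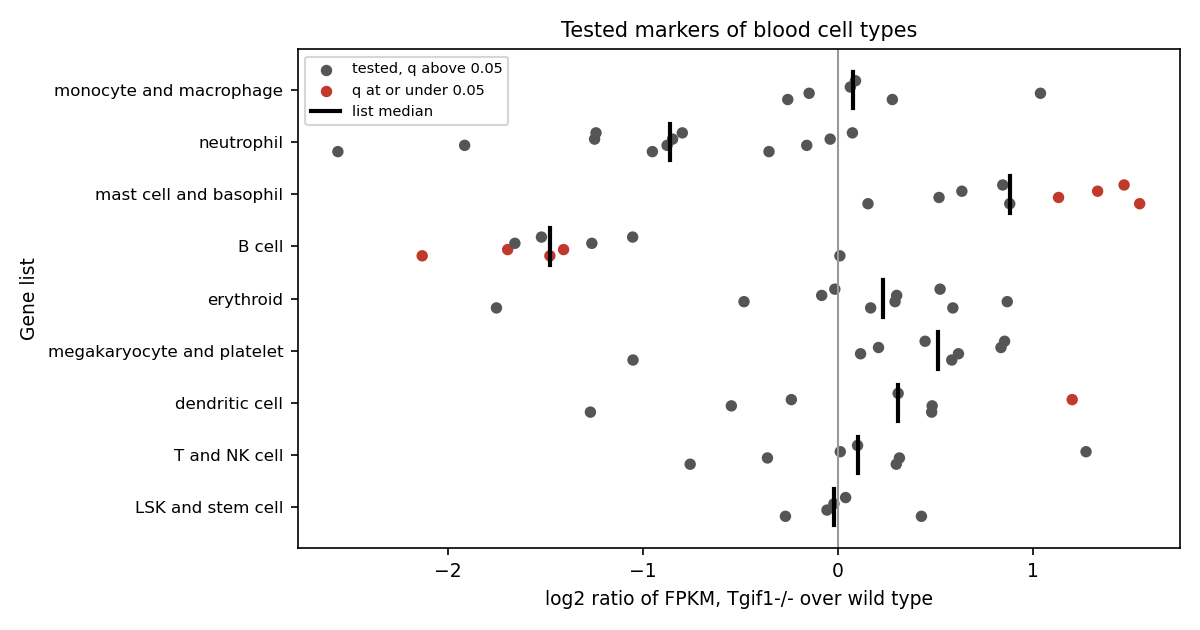
log2 ratio of FPKM, Tgif1-/- over wild-type label, for tested markers of 9 cell type lists; red points have a q at or under 0.05 in the authors' deposited table, grey points do not, and bars are list medians. The monocyte and macrophage median is 0.08, between 0.88 for mast cell and basophil markers and -1.48 for B cell markers.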

How the data were processed

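The 6 RNA libraries of LSK cells comprise 3 Tgif1-/- and 3 wild-type ones by label. TopHat and Cuffdiff, without versions, and the human build hg19 are named per the submitters' processing notes, although the identifiers are mouse ones. The authors deposited 1 FPKM value per group, per the file headers, with a log2 fold change, p-value, q-value and test statistic (a score) per gene. The deposited fold has wild type on top and was turned round here. Deposited p-values equal the two-sided normal value of the statistic for 10683 of 10683 tested genes above 0 in both groups (within 0.001), so the log2 ratio over the statistic was taken as the implied standard error. It was used for 95% intervals. Depth is unknown. Failed genes keep FPKM values, and their deposited log2 fold is set to 0, so their ratios were computed from the FPKM values.

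The 10 genes, the lists and the alternatives were chosen with earlier results of these data known. Named genes were the 10, then for each related list any called gene or the 2 with the smallest p, and abundant genes of at least 20 FPKM where they set the list's level; some genes of these lists are counted but not reported here by name. Maf, Emr4, F13b, Ly96, C1ra, C1s, C3, Ccl7 and Ccl12 were named after their values were seen, as partners or relatives of the 10. Spic, Car1 and Car2 were also named after their values were seen. The splits of cell type lists by their most abundant genes were also chosen after their values were seen. Positions come from GENCODE M21 (GRCm38) by identifier. The table's own positions belong to another build, since 173 of 20781 matched identifiers had the same position. Shared sequence was counted as 50-base stretches of GENCODE transcripts found in another gene. Python 3.11.15, pandas 2.3.3, numpy 2.4.6, scipy 1.17.1 and matplotlib 3.10.9 were used, and the adjustment was tested on simulated data.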

Additional observations from a re-analysis of the deposited data

How the results depend on the processing

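No paired analysis was possible because the table holds 1 value per group, and leaving out a replicate was not run for the same reason. The count of called genes among the 10 was 0 at q thresholds of 0.01 and 0.1, at an unadjusted p under 0.05, with each implied error raised to at least the median error of its expression bin (20 bins), and among genes of at least 1 FPKM in a group. The count over the related lists was 0 in the same settings, except that an unadjusted p under 0.05 gave 4 of 74. The median log2 ratio of the 6 tested genes (0.08) was 0.07 with a pseudocount of 0.1, 0.06 with a pseudocount of 1, 0.11 when centred on the median of all tested genes, 0.08 over those that reached 1 FPKM in a group, and 0.00 over all 10 genes whatever their test status. No gene of the 10 changed direction under either pseudocount or the centring. The values of C1qa, Emr1 and Cd14 lie under 1 FPKM, where a pseudocount of 1 moved the log2 ratio of C1qa to 0.38, of Emr1 to -0.11 and of Cd14 to 0.24.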

Other observations

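Genes whose tests failed carry no error, and several of the wide differences among the 10 genes and the related lists were of this kind. Itgb2, the shared beta chain of the leukocyte integrins, stood at 29.8 FPKM under the Tgif1-/- label and 16.5 FPKM under the wild-type label, a log2 ratio of 0.85. By absolute log2 ratio it lay at percentile 99.1 of the 3013 failed genes that reached 1 FPKM in a group, whose median was 0.10. Axl, a receptor tyrosine kinase of macrophages, stood at 3.07 FPKM under the Tgif1-/- label and 4.73 FPKM under the wild-type label, at percentile 97.7. Tgm1, at 2.66 FPKM (Tgif1-/-) and 1.64 FPKM (wild type), lay at percentile 98.6. Cd97 lay at percentile 97.0, and like Tgm1 it had the higher value under the Tgif1-/- label. F13a1 lay at percentile 96.2, Csf1r at percentile 78.1 and Ccr2 at percentile 37.9. Itgam, the partner chain of Itgb2 in CD11b/CD18, was tested and stood at 35.4 FPKM under the Tgif1-/- label and 34.0 FPKM under the wild-type label (p = 0.798 in the authors' deposited table). Itgb2, Axl, Tgm1 and Cd97 were picked here after their values were seen, and no test goes with them.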
